A study of Mus musculus with 4 samples.

Results

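Hox genes were examined in skin of mice treated with MC903 or with vehicle, to ask which members of the family were measurable in this tissue and whether their transcripts differed between the treatments. The members were all genes named Hoxa, Hoxb, Hoxc or Hoxd followed by a number that had a probe set annotated with 1 gene symbol. That gave 33 genes of 18193 in all, out of 39 such genes in the RefSeq table; the other 6 were not analysed here. The 33 genes carried 48 probe sets, and for each gene the brightest one was used, by its mean log2 signal over the 4 arrays.

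All mice were wild type BALB/c females that had been sensitised with ovalbumin together with MC903 on the ear skin and then challenged with ovalbumin by mouth. After that challenge, the 2 Control samples came from mice given ethanol and the 2 MC903 samples from mice given MC903 (calcipotriol, an agonist of the vitamin D receptor that causes dermatitis in mice), and both groups were challenged orally once more. RNA was taken from skin, without a site being given. The Control skin therefore belonged to animals that had also met MC903 during sensitisation, and the labels give neither ages, days nor where the later application was made. Nothing in the labels says whether replicates were separate animals, so p-values measure only how far these arrays lie apart, possibly for technical reasons, and 2 arrays per group limit the precision.

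Hox genes encode homeodomain transcription factors that tell cells where along the body they lie. They sit in 4 clusters (Hoxa to Hoxd), each ordered so that genes of low number act towards the head and genes of high number towards the tail and the tips of the limbs, and genes of the same number in different clusters are called paralogs. Adult skin keeps part of this code, above all in its fibroblasts, whose Hox profile is known to differ between body sites, while a few members have a role in the hair follicle.

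Promoter sequences are shown for 5 of the genes that stood above background on every array, because these are the stretches in which landmarks were searched. The window of Hoxa11 held none of them. Hoxa2 and Hoxa11 were the 2 with a promoter entry whose Control and MC903 signals did not overlap, and Hoxa5, Hoxd8 and Hoxd10 were the 3 whose promoter held a nuclear receptor half-site (AGGTCA). The nuclear receptors include those for vitamin D and retinoic acid. Each sequence runs 5′ to 3′ on the gene's own strand from 250 bases before to 50 bases after the RefSeq start (RefSeq, build GRCm38.p6), with capitals marking a match to the half-site or to TGATNNAT, a composite site of Pbx and Hox proteins, on either strand. The windows are chr6:52164782-52165081 (minus strand) for Hoxa2, chr6:52245761-52246060 (minus) for Hoxa11, chr6:52204538-52204837 (minus) for Hoxa5, chr2:74704365-74704664 (plus) for Hoxd8 and chr2:74691641-74691940 (plus) for Hoxd10.
Hoxa2: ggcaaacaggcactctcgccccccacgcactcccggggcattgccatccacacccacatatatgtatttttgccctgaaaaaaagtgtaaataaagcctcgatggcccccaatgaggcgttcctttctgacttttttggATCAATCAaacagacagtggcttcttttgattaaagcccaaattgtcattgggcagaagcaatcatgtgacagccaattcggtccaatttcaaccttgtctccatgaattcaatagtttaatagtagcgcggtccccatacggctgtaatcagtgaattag
Hoxa11: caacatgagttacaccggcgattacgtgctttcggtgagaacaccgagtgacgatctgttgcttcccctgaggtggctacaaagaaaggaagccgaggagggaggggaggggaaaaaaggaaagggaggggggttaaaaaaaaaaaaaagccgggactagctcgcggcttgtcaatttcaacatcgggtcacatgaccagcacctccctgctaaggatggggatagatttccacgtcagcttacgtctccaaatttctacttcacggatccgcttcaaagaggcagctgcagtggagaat
Hoxa5: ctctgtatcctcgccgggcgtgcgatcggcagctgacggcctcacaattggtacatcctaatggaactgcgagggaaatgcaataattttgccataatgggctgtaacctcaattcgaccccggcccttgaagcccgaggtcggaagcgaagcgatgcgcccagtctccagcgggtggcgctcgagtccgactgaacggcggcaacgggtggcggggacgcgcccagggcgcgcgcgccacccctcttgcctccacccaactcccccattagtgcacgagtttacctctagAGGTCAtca
Hoxd8: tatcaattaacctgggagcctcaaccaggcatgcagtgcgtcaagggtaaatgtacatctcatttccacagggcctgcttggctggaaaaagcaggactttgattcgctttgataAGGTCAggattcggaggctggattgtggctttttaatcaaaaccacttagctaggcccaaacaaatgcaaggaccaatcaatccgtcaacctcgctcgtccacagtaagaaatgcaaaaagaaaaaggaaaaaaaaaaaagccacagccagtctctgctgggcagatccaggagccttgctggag
Hoxd10: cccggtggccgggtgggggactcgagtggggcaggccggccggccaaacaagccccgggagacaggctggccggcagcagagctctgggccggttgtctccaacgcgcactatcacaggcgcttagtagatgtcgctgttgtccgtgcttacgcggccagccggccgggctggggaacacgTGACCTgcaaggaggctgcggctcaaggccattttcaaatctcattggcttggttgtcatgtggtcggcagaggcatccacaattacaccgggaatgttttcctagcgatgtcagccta

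Of the 33 Hox genes, 19 had a promoter entry, 21 windows in all, and these were rich in CpG dinucleotides, cytosine followed by guanine. Their median was 15 CpG per 300-base window, against 7 over all 32851 promoter windows. At least 10 CpG were present in 71.4% of the Hox windows and in 43.5% of all windows. The half-site was found in 6 of 21 Hox windows (28.6%) and in 16.3% of all windows. Among the 7 Hox genes above background on all 4 arrays that had an entry, 3 held it, Hoxa5, Hoxd8 and Hoxd10, and in all 3 the Control and MC903 signals overlapped. TGATNNAT was found in 3 of 21 Hox windows (14.3%) against 8.85% of all windows, once in Hoxa2. The TATA box (TATAAA, either strand) was found in 2 of 21 (9.52%) against 13.62%. These matches describe letters in the windows and say nothing of binding, and the absence of a match says only that the letters are not in that window.

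Background was judged from the 3 TrpnX probe sets, which were made for bacterial transcripts and had signals of 1.55 to 23.96 on these arrays. A gene was taken as above background when its signal was higher than 23.96, the highest TrpnX signal, on every array. By this measure 12 of 33 Hox genes were above background on all 4 arrays, compared with 75.3% of all genes. Another 10 Hox genes were above it on 1 to 3 arrays and 11 on none, compared with 8.95% of all genes on none. Signals of different probe sets are not set against each other here, since each probe set has its own brightness.

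By cluster, the 12 genes were placed as follows. In the Hoxa cluster, 5 of 9 measured genes were above background on every array, namely the 4 consecutive genes Hoxa2 to Hoxa5 near the head end and Hoxa11. In the Hoxb cluster the count was 2 of 9, the neighbours Hoxb2 and Hoxb3. In the Hoxc cluster it was 2 of 7, Hoxc6 and Hoxc13, the second being the last gene of its cluster. In the Hoxd cluster it was 3 of 8, the consecutive genes Hoxd8, Hoxd9 and Hoxd10, whereas Hoxd11, Hoxd12 and Hoxd13 on one side and Hoxd1 and Hoxd3 on the other were not. Split by paralog group, 4 of 7 genes of groups 1 to 3, 4 of 12 of groups 4 to 8 and 4 of 14 of groups 9 to 13 were above background on all arrays.

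**Figure D1:**
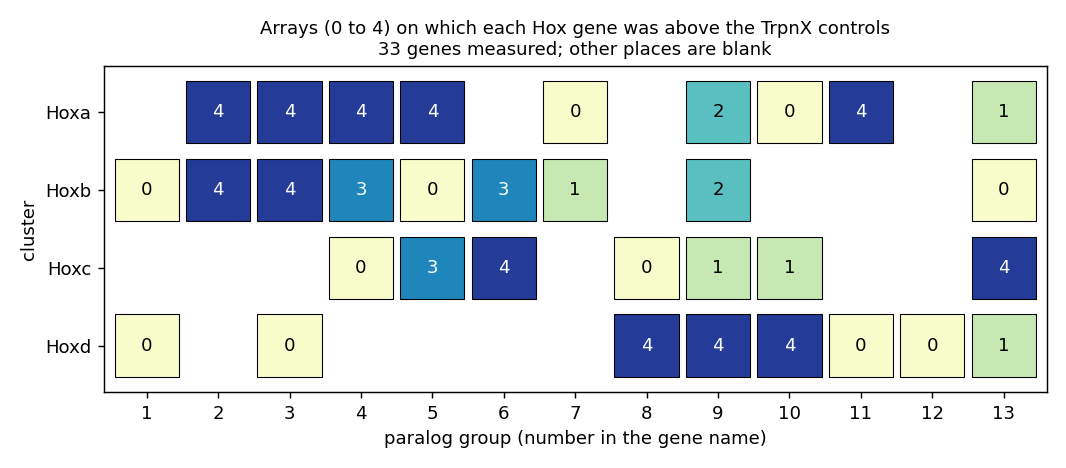
Each square is a Hox gene, placed by cluster (rows) and paralog group (columns), and its number and shade give on how many of the 4 arrays its signal was above 23.96, the highest TrpnX control; places without a measured gene are blank. The 12 genes with 4 of 4 arrays lie at Hoxa2 to Hoxa5, Hoxa11, Hoxb2, Hoxb3, Hoxc6, Hoxc13 and Hoxd8 to Hoxd10.

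Just inside the limit, the lowest signals were 35.0 for Hoxb3 and 40.4 for Hoxa4. Just outside it were the 3 genes above it on 3 of 4 arrays, Hoxb4, Hoxb6 and Hoxc5. Hoxb4 had 34.8 and 30.9 in Control and 12.7 and 59.5 in MC903, and Hoxb6 had 34.8 and 2.94 in Control and 32.3 and 40.1 in MC903. Hoxc5 had 37.1 and 51.3 in Control and 8.54 and 31.6 in MC903. For each of these genes a single array fell into the range of the TrpnX controls. With 47.9, 2 times the highest TrpnX signal, as the limit, the count of Hox genes above it on every array was 9, and with the median TrpnX signal plus 3 median absolute deviations it was 11. Hoxb3, Hoxa4 and Hoxa11 fell out at 47.9, and Hoxb3 alone fell out at the second limit, 39.5. The stricter limits thus remove Hoxb3, which had the largest difference, and the first also removes Hoxa11. By the mean over arrays 17 Hox genes were above 23.96, and without MC903 replicate 1 the count was 14.

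No Hox gene passed the test between MC903 and Control. At an adjusted p below 0.05, limma called 0 of 33 Hox genes and 0 of 18193 genes (0%), and at an unadjusted p below 0.05 it had 4 of 33 Hox genes, against 15.2% of all genes. Of these 4, 1 was lower, against 8.39% of all genes, and 3 were higher, against 6.82%. Among the 12 Hox genes above background, 1 was lower and 0 were higher at that unadjusted p, against 9.12% and 6.5% of all genes above background and 15.6% in either direction. With a prior variance that follows the signal it called 0 Hox genes, against 0.923% of all genes. With 2 arrays in each group, the smallest two-sided p of an exact permutation test is 0.333. Over the 12 Hox genes above background the median difference was -0.06 on the log2(signal + 16) scale, and over the 13701 genes above background on all arrays it was -0.06 as well. The median in MC903 replicate 1 against the Control mean was -0.13 and in MC903 replicate 2 it was -0.03.

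Both MC903 arrays were below both Control arrays for 4 of the 12 genes (Hoxa2, Hoxb2, Hoxb3 and Hoxc13), compared with 32% of all genes above background (28.2% of all genes measured). Both were above for 1 of 12 (Hoxa11), compared with 21.8% (21.6% of all genes measured). The share of lower genes is thus close to that of other genes. Without MC903 replicate 2 the counts were 7 lower and 2 higher, against 46.8% and 35% of all genes above background. Without MC903 replicate 1 they were 5 and 3, against 44.8% and 33.7%. Without Control replicate 1 they were 6 and 3, against 42% and 30.9%, and without Control replicate 2 they were 6 and 2, against 43.1% and 31.3%. Groups of 2 and 1 arrays overlap less easily than groups of 2, in all genes as in Hox genes. For 5 of the 12 genes (41.7%) the difference was larger than the pooled SD between replicates, compared with 62.1% of all genes above background. These were the same 5, which adds nothing, since groups of 2 that do not overlap always differ by more than that SD. The median pooled SD of the 12 genes was 0.28, against 0.17 over all genes above background.

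**Figure D2:**
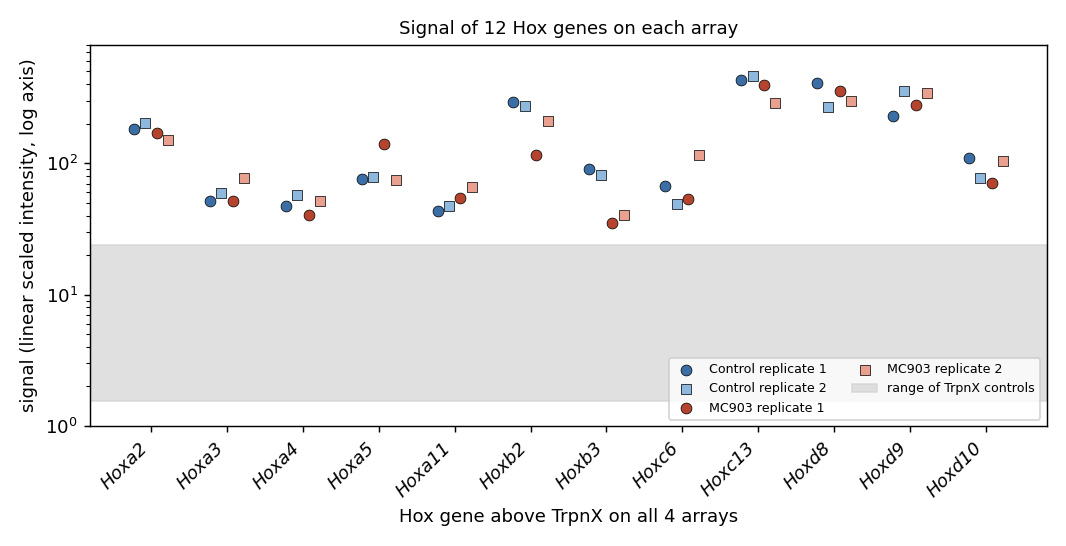
Signals of the 12 Hox genes above background on each of the 4 arrays (linear scaled intensity, log axis); circles are replicate 1 and squares replicate 2, blue for Control and red for MC903, and the grey band is the range of the TrpnX controls. The MC903 points of Hoxb2 and Hoxb3 lie below both Control points, whereas those of Hoxd8 lie between its Control points; heights are not comparable between genes.

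Among the genes of the head end, Hoxb3 and Hoxb2 had the largest differences. Hoxb3, which patterns the hindbrain and the pharyngeal region of the embryo, had signals of 90.5 and 81.0 in Control and of 35.0 and 40.6 in MC903. The groups did not overlap, and the MC903 mean was 0.441 of the Control mean. The log2 difference was -0.92 ± 0.16 (SE, n = 2 per group; 95% interval -1.36 to -0.48; limma, adjusted p = 0.188). Its unadjusted p was 0.00398, the 1 below 0.05 among the 12 genes. The gene's other probe set had signals of 51.9 and 14.6 in Control and of 11.0 and 47.0 in MC903, with the groups overlapping and 1 array of each group within the TrpnX range.

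Hoxb2, its neighbour, is active in the hindbrain and in the neural crest of the second pharyngeal arch. It had signals of 295 and 272 in Control and of 115 and 209 in MC903. Both MC903 arrays were lower, replicate 1 much more so than replicate 2. The difference was -0.80 ± 0.31 (95% interval -1.62 to 0.02; limma, adjusted p = 0.338), and it was -0.41 without MC903 replicate 1 and -1.19 without MC903 replicate 2. Hoxb2 has 1 probe set.

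Hoxa2, the gene that gives the second pharyngeal arch its identity and from it the outer ear, had signals of 182 and 202 in Control and of 169 and 151 in MC903. The groups did not overlap, but the gap between them was narrow. The difference was -0.24 ± 0.16 (95% interval -0.68 to 0.20; limma, adjusted p = 0.54). Its promoter, with the TGATNNAT match in capitals, is the first of those printed.

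Hoxa3, needed for the thymus and parathyroid, had signals of 52.1 and 59.8 in Control and of 51.7 and 77.8 in MC903. The groups overlapped, with MC903 replicate 2 high, and the difference was 0.15 ± 0.23 (95% interval -0.46 to 0.76). It has 3 further probe sets, which gave -0.43, -0.52 and 0.43. The one at -0.52 was above 23.96 on 1 of 4 arrays and the one at 0.43 on 2. In all, 3 of the 4 genes of groups 1 to 3 above background were lower in both MC903 arrays, where 32% of all genes above background were, and the median difference of the 4 was -0.52. Whether these genes differed from the other paralog groups was not tested.

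Among the genes of the middle of the clusters, none separated the groups. Hoxa4 had signals of 47.6 and 56.9 in Control and of 40.4 and 51.8 in MC903 (difference -0.14 ± 0.19, 95% interval -0.64 to 0.37). Hoxa5, which patterns the neck and the lung, had signals of 76.5 and 78.6 in Control and of 139 and 74.3 in MC903. Only MC903 replicate 1 was high, and the difference of 0.34 ± 0.31 (95% interval -0.48 to 1.16) became -0.05 without it. This probe set is named as one that may also bind other transcripts, and the second probe set of Hoxa5 gave -0.21.

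Hoxc6, a gene of the thoracic trunk and forelimb level, had signals of 66.7 and 49.2 in Control and of 53.5 and 115 in MC903. Here MC903 replicate 2 was high, and the difference of 0.38 ± 0.36 (95% interval -0.60 to 1.36) became -0.08 without it. The further probe sets of Hoxc6 gave 0.19 and -0.51, and the mean of its probe sets gave 0.02. The one at -0.51 was above 23.96 on 1 of 4 arrays. Hoxd8 had signals of 407 and 270 in Control and of 354 and 299 in MC903, so that both MC903 values lay between the Control values. Its difference was -0.03 ± 0.26 (95% interval -0.72 to 0.66), and its other probe set gave -0.00101. Over the 4 genes of groups 4 to 8 the median difference was 0.16.

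Among the genes of the tail end, Hoxd9 and Hoxd10, which act in the posterior trunk and the limbs, did not separate the groups either. Hoxd9 had signals of 230 and 356 in Control and of 278 and 346 in MC903 (difference 0.11 ± 0.27, 95% interval -0.62 to 0.85). Hoxd10 had signals of 110 and 77.4 in Control and of 70.3 and 104 in MC903 (difference -0.09 ± 0.26, 95% interval -0.80 to 0.62). The intervals of Hoxd8, Hoxd9 and Hoxd10 have lower bounds of -0.80 to -0.62 and upper bounds of 0.62 to 0.85, so the data do not show that these genes were equal in both treatments.

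Hoxa11, a gene of the limb and the female reproductive tract, was the 1 gene above background that was higher in both MC903 arrays. It had signals of 43.3 and 47.0 in Control and of 54.3 and 66.3 in MC903. The difference was 0.32 ± 0.17 (95% interval -0.15 to 0.78; limma, adjusted p = 0.457). Hoxa11os, the antisense transcript of that locus, had signals of 21.6 and 21.2 in Control and of 15.4 and 31.3 in MC903, within the range of the TrpnX controls on 3 of 4 arrays.

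Hoxc13, unlike the other members, is best known from the hair follicle and nail, where it activates hair keratin genes in the forming shaft. It had signals of 430 and 458 in Control and of 393 and 289 in MC903. Both MC903 arrays were lower, replicate 2 more so. The difference was -0.38 ± 0.21 (95% interval -0.94 to 0.18; limma, adjusted p = 0.461), and it was -0.17 without MC903 replicate 2. Genes of the hair shaft and root sheath were also lower. Of 21 such genes above background, 19 were lower and 2 higher in both MC903 arrays, against 32% and 21.8% of all genes above background. Their median difference was -3.05, and limma called 0 of the 21. With a prior that follows the signal it called 15 of the 21, against 0.923% of all genes.

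Krt33a, a keratin of the hair shaft, had signals of 2827 and 4630 in Control and of 133 and 101 in MC903 (difference -4.78 ± 0.31; limma, adjusted p = 0.0854). Krt86 differed by -4.44 ± 0.44 and Krt34 by -4.19 ± 0.36. The summed signal of the 22 measured shaft and sheath genes was 45960 and 82970 in Control and 13850 and 12330 in MC903. Whether Hoxc13 follows these genes from array to array was not tested. Foxn1, a follicle transcription factor known as a target of Hoxc13, had signals of 264 and 366 in Control and of 194 and 256 in MC903 (-0.45 ± 0.25). Msx2 had signals of 507 and 631 in Control and of 162 and 223 in MC903 (-1.50 ± 0.23), and Lef1, the Wnt effector of the hair matrix, of 165 and 204 in Control and of 50.02 and 75.3 in MC903 (-1.36 ± 0.24). With Runx1 (-0.81 ± 0.16) these belong to 19 follicle transcription factors above background, with a median of -0.21 and 0 called by limma. Of the 19, 10 were lower and 3 higher in both MC903 arrays, against 32% and 21.8% of all genes above background. In RNA of whole skin, fewer cells of a type and less RNA per cell cannot be told apart.

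**Figure D3:**
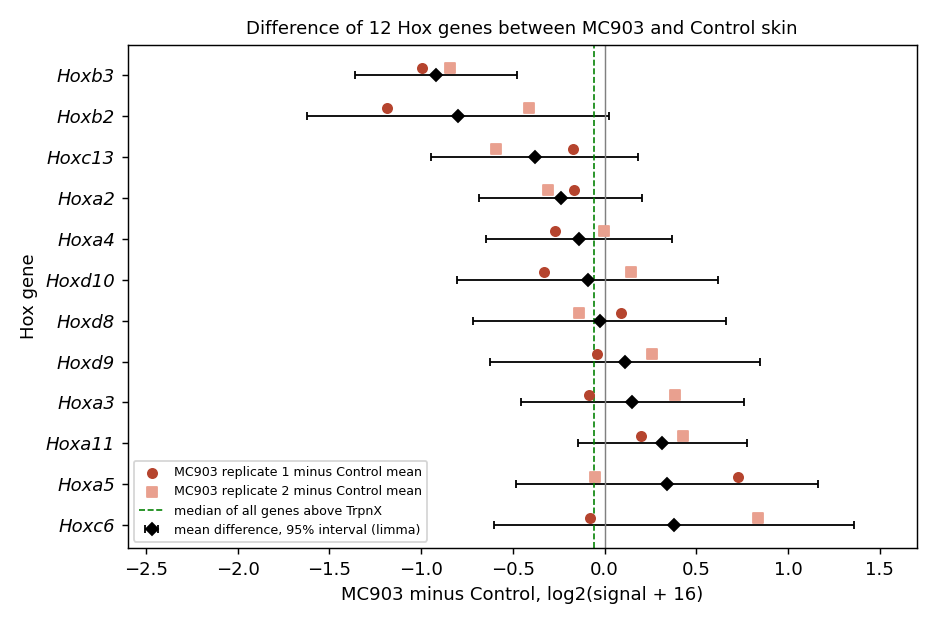
Difference between MC903 and Control for the 12 Hox genes above background on the log2(signal + 16) scale; diamonds are means with 95% intervals from limma, red circles and light squares are the 2 MC903 arrays against the Control mean, and the dashed line is the median of all genes above background (-0.06). The interval of Hoxb3 (-1.36 to -0.48) is the 1 of the 12 that leaves out 0, before adjustment for the number of genes tested.

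The remaining 21 Hox genes were above background on fewer than 4 arrays. Of these, 2 are given in full because their groups did not overlap and at least 1 array was above the TrpnX controls. Hoxc5 had signals of 37.1 and 51.3 in Control and of 8.54 and 31.6 in MC903 (-0.81 ± 0.38), replicate 1 of MC903 lying within the control range. Hoxd13, the last gene of its cluster and one of the digits, had signals of 0.917 and 16.7 in Control and of 22.1 and 25.4 in MC903, with 1 of 4 arrays above 23.96. The 3 Hox genes that were higher at an unadjusted p below 0.05, Hoxb13, Hoxc8 and Hoxd1, reached at most 19.0 on any array. Their values therefore do not exceed the bacterial controls on any array, and no level is drawn from them. Of the rest, Hoxb1 was higher and Hoxd12 lower in both MC903 arrays without exceeding the highest TrpnX signal on any array. Hoxa7, Hoxa10, Hoxb5, Hoxc4, Hoxd3 and Hoxd11 also stayed below it on all 4 arrays. Hoxa13, Hoxb7, Hoxc9 and Hoxc10 exceeded it on 1 array, Hoxa9 and Hoxb9 on 2 and Hoxb4 and Hoxb6 on 3, with overlapping groups in each case.

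Hox proteins bind DNA with cofactors of the TALE homeodomain class, Pbx, Meis and their relatives. The counts of each list below can be read against the 32% of all genes above background that were lower in both MC903 arrays, the 21.8% that were higher and their median of -0.06. Of 11 such genes listed, 10 were measured and 9 were above background on all arrays. Both MC903 arrays were lower for 6 of the 9 and higher for 0, limma called 0 of 9 over all genes, and the median difference was -0.18. Meis2 had signals of 450 and 322 in Control and of 207 and 299 in MC903 (-0.58 ± 0.28). Meis1 had signals of 515 and 467 in Control and of 316 and 332 in MC903 (-0.57 ± 0.16), and Tgif1, a repressor of the same class, of 716 and 673 in Control and of 478 and 483 in MC903 (-0.52 ± 0.15). In Meis1 and Tgif1 the MC903 arrays lay close together and clearly below both Control arrays.

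Polycomb proteins keep silent Hox genes silent, and trithorax proteins keep active ones active. Of 28 Polycomb genes above background, 10 were lower and 2 higher in both MC903 arrays, the lower share being near the 32% of all genes, with a median of -0.10 and 0 called by limma. Cbx7, a reader of the Polycomb mark, had signals of 391 and 421 in Control and of 190 and 193 in MC903 (-1.02 ± 0.15; limma, adjusted p = 0.163), and its relative Cbx8 had 178 and 168 in Control and 99.9 and 112 in MC903 (-0.63 ± 0.16). Scmh1 differed by -0.50 ± 0.16. Ezh2, the enzyme that writes the mark, had signals of 1223 and 1249 in Control and of 1324 and 1055 in MC903, with the groups overlapping. Of 17 trithorax genes and H3K27 demethylases, 11 were lower and 2 higher, with a median of -0.19 and 0 called. Kmt2d differed by -0.43 ± 0.15, Dot1l by -0.38 ± 0.18, Mllt3 by 0.40 ± 0.15 and Kmt2a, the founding activator of Hox genes, by -0.28 ± 0.19.

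Retinoic acid switches on Hox genes of the head end in the embryo. Of 17 pathway genes above background, 5 were lower and 2 higher in both MC903 arrays, with a median of -0.20 and 0 called by limma. Aldh1a1, an enzyme that makes retinoic acid, had signals of 1039 and 1214 in Control and of 611 and 675 in MC903 (-0.79 ± 0.17). Aldh1a3, its relative, had 301 and 349 in Control and 1951 and 249 in MC903, a difference of 1.08 ± 0.998 in which MC903 replicate 1 alone was high. The receptor Rxrg differed by -0.66 ± 0.32. Genes that flank the Hox clusters, antisense transcripts and the Cdx regulators gave 11 genes above background, 1 lower and 3 higher, with a median of 0.03. The 3 higher ones were Skap1 beside the Hoxb cluster (0.78 ± 0.25), Snx10 near the Hoxa cluster (0.48 ± 0.19) and Mtx2 beside the Hoxd cluster (0.29 ± 0.16).

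Other factors of body position were measured beside the Hox genes. Of 24 limb and trunk patterning genes above background, 14 were lower and 1 higher in both MC903 arrays (all genes, 32% and 21.8%), with a median of -0.37 and 0 called by limma. Shox2 had signals of 152 and 119 in Control and of 61.9 and 67.0 in MC903 (-0.91 ± 0.19). Emx2 had 384 and 227 in Control and 126 and 190 in MC903 (-0.86 ± 0.34), and Twist1 differed by -0.72 ± 0.21. Tbx15, a gene of dorsal skin, had 756 and 588 in Control and 440 and 556 in MC903 (-0.42 ± 0.22). Pitx1, a gene of the hindlimb and the jaw, had signals of 33.5 to 56.8, Tbx5, of the forelimb, was above 23.96 on 1 array and En1, of ventral limb skin, on none.

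Of 19 head and ear patterning genes above background, 11 were lower and 1 higher (all genes, 32% and 21.8%), with a median of -0.32 and 0 called by limma. The largest differences were those of Msx2 (given above), Dlx6 and Dlx4. Dlx6, of the lower jaw programme, had signals of 162 and 119 in Control and of 24.1 and 93.1 in MC903 (-1.23 ± 0.53). Dlx4 had 102 and 176 in Control and 42.8 and 81.5 in MC903 (-0.99 ± 0.38). The lists share members, so their counts are not independent. Msx2 is also among the shaft and sheath genes and the follicle transcription factors, and Dlx3 is also among the follicle transcription factors. Foxn1 is in both of those follicle lists. Whether these lists differed from the Hox genes was not tested.

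**Figure D4:**
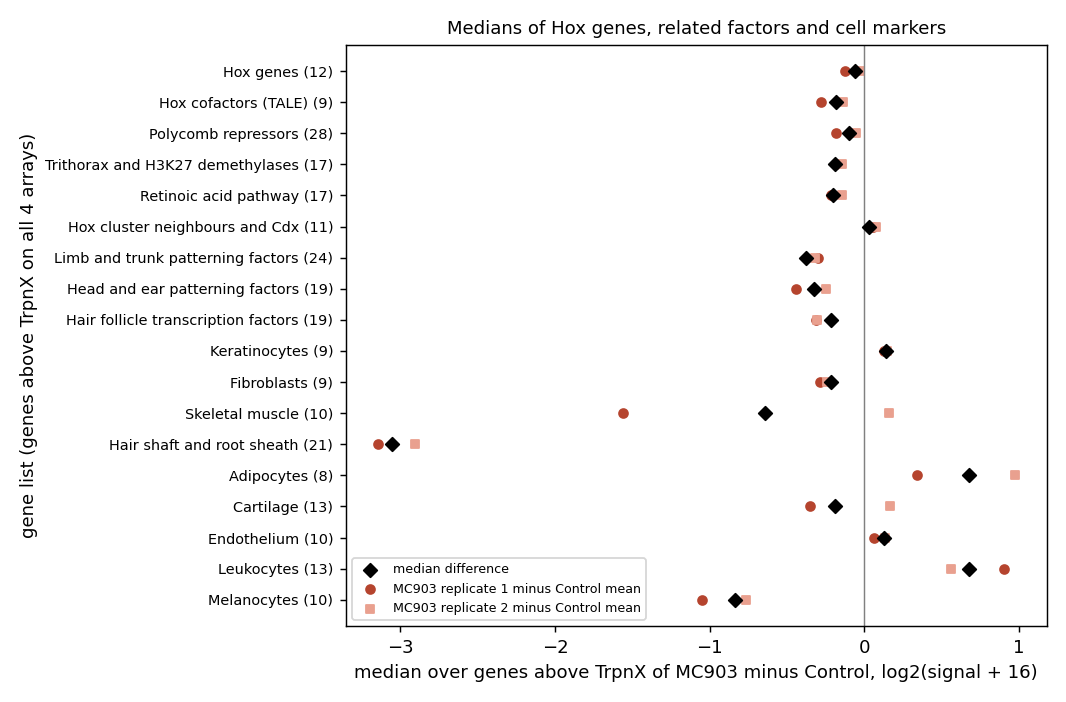
Median difference between MC903 and Control over the genes of each list that were above background (numbers in brackets), on the log2(signal + 16) scale; diamonds are the mean of both MC903 arrays, circles and squares the single MC903 arrays against the Control mean. The Hox median (-0.06) lies near 0, that of hair shaft and root sheath genes at -3.05, and the 2 MC903 arrays part most for skeletal muscle (-1.56 and 0.16).

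Markers of the cells that skin holds were compared to see what else differed in these arrays. The labelled tissue, skin, showed its keratinocyte markers, 9 of 9 measured being above background, of which 6 were higher and 3 lower in both MC903 arrays. Krt14 was at 31850 and 30610 in Control and at 39810 and 36200 in MC903, and Krt15, of the basal layer and follicle, at 23460 and 24190 in Control and at 16290 and 15880 in MC903. The largest differences of the 9 were those of Krt1 and Ivl (1.12 ± 0.27). Krt1 was at 11800 and 13800 in Control and at 31840 and 30960 in MC903 (1.30 ± 0.17). Fibroblast markers, the cells with the best known positional Hox code, were above background for 9 of 9, 5 lower and 0 higher in both MC903 arrays, with a median of -0.22. Their summed signal was 86330 to 93930 in Control and 75880 to 80350 in MC903, and Col1a1 differed by -0.70 ± 0.17, the largest difference of the 9. The groups overlapped for Col3a1 (-0.021), Pdgfra (0.046), Dpt (-0.215) and Thy1 (0.222). Melanocyte markers were lower for 10 of 10, with a summed signal of 9107 to 11950 in Control and of 4593 to 5485 in MC903. Leukocyte markers were higher for 9 of 13, with a summed signal of 11990 to 12550 in Control and of 24430 to 82230 in MC903. S100a8 and S100a9, neutrophil genes that keratinocytes of inflamed skin also make, carried most of that difference, and without them the sums were 11320 and 11350 in Control and 18810 and 14460 in MC903. Adipocyte markers were higher for 6 of 8, with a median of 0.68, and endothelial markers for 3 of 10, with a median of 0.13.

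Skeletal muscle and cartilage were part of the sampled tissue. Muscle markers were above background for 10 of 10, with summed signals of 74330 and 44610 in Control and of 16150 and 57820 in MC903, so MC903 replicate 1 held the least. Of the 12 Hox genes, 5 were lowest in that array (Hoxa3, Hoxa4, Hoxb2, Hoxb3 and Hoxd10). Another 3 were lowest in MC903 replicate 2 (Hoxa2, Hoxa5 and Hoxc13) and 2 in each Control array, and Hoxa5 was highest in MC903 replicate 1. The same count over all genes was not made, and MC903 replicate 1 also had the lowest median signal, 90.2 against 99.6 to 109 on the other arrays. Cartilage markers were above background for 13 of 14, Matn1 being at the level of the TrpnX controls, with summed signals of 13860 and 8788 in Control and of 7674 and 11720 in MC903. Hoxb3 differed from the Control mean by -0.995 in MC903 replicate 1 and by -0.84 in MC903 replicate 2. The part of these other tissues and of the hair follicle in the Hox differences was not tested.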

How the data were processed

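Total RNA of mouse skin had been labelled with biotin from 200 ng per sample and hybridised to 3′ arrays, as the labels' protocols state. Deposited were linear signals, that is array intensity, of 45101 probe sets on 4 arrays. The mean without the highest and lowest 2% was 500 on each array, which shows a common scaling of the deposited intensity, and median signals were 90.2 to 109. No source used here names the software, and there were no detection calls.

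Probe sets were named from the platform annotation, with symbols updated by Entrez ID to the RefSeq table of GRCm38.p6 (34741 of 34945 with 1 symbol matched). Several symbols were carried by 932 probe sets, 9160 were unnamed and 64 were controls. Per gene the probe set with the highest mean log2 signal was kept, which gave 18193 genes. Signals were taken as log2(signal + 16), which understates differences of dim genes. Groups come from the labels, 2 arrays each, and limma 3.58.1 (R 4.3.3) compared them (constant prior variance, 2 residual and 2.32 prior degrees of freedom, p adjusted by Benjamini-Hochberg across all 18193 genes, threshold 0.05). The test was tested on simulated data. Alternatives varied the constant, normalization, filter on dim genes, probe set rule, prior, background limit, replicate block and arrays; one, choosing probe sets by mean linear signal, was chosen after seeing the data.

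Hox genes above background, or with groups that do not overlap and at least 1 array above it, are given in full; of each list the 3 members above background on all arrays with the largest absolute difference, and a set of positional, follicle and marker genes fixed with the rule, were to be named; marker lists are given mostly as counts and summed signals. Members and lists were chosen with earlier results of these data known.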

Additional observations from a re-analysis of the deposited data

How the results depend on the processing

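No Hox gene was called under any setting run. The count of all genes called, 0, became 70 with an added constant of 64, 3 with array medians centred, 36 and 190 without the lowest 25% and 50% of genes, 12 with probe sets averaged, 168 with a prior that follows the signal and 5 with probe sets chosen by their mean linear signal, where 91 genes but 0 Hox genes had another probe set. With the replicate number as a block it was 0 (limma, smallest adjusted p = 0.178) and changed no call; same-numbered arrays had deviations correlated at -0.06 across 18193 genes, and the labels do not say that numbers pair the samples. Counts of groups that do not overlap were not computed with the block.

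Hoxa2, Hoxa4, Hoxb2, Hoxb3, Hoxc13 and Hoxa11 kept their direction under every setting run, Hoxb3 between -1.16 and -0.53. All of these but Hoxa4 had groups that do not overlap. For them, leaving out an array or changing the constant could not turn the direction, so those settings add nothing. Hoxa4, whose groups overlapped, was at -0.006 without MC903 replicate 1. Of the 12 genes above background, the number higher in both MC903 arrays was 2 with array medians centred. Without the lowest 50% of genes 3 Hox genes were left, 1 lower and 0 higher. Leaving out each array gave 5 to 7 lower and 2 to 3 higher genes. Hoxd8 became 0.054 with quantile normalization and also 0.054 with medians centred, and Hoxa3 became -0.094 with probe sets averaged. Leaving out each array gave ranges of -0.31 to 0.26 for Hoxd8, -0.19 to 0.41 for Hoxd9, -0.33 to 0.14 for Hoxd10, -0.085 to 0.385 for Hoxa3, -0.051 to 0.729 for Hoxa5 and -0.079 to 0.834 for Hoxc6. The causes were not tested. Signal over background limits most members, since 21 of 33 were not above the TrpnX controls on all 4 arrays.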
